A study of Homo sapiens with 6 samples.

Results

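The genes described here are those of the glutathione and thioredoxin systems, the main thiol-based defences of a cell against peroxides. The set names 10 genes, GCLC, GCLM, GSR, GPX1, GPX4, TXN, TXNRD1, NQO1, SRXN1 and PRDX1, and a gene was measured where a row of the deposited table is annotated with its symbol and no other. By that rule 9 of the 10 genes were measured, with 1 transcript cluster each, out of 22375 genes with such a row. The cluster that names SRXN1 also names SCRT2, so SRXN1 was not analysed here. The cells were H1299, a line grown from a human non-small cell lung carcinoma that makes no p53 protein. They had been cultured for 14 days with the DMSO vehicle alone (3 arrays) or with DMSO plus 500 nM PD 0332991 (3 arrays). PD 0332991, also called palbociclib, inhibits the kinases CDK4 and CDK6, and both groups were kept in RPMI medium with serum. The study's design thus asks which transcripts differ after long exposure to the drug in 1 cell line. The labels do not say whether the arrays of a group came from separate cultures, so the p-values reflect the spread between arrays alone, which may be technical.

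Glutathione is a tripeptide with a reactive thiol that is present in cells at high concentration. Glutamate-cysteine ligase makes its precursor from glutamate and cysteine, glutathione peroxidases spend it on peroxides, and glutathione reductase restores it with NADPH. The thioredoxin system runs beside it: thioredoxin passes electrons to peroxiredoxins and ribonucleotide reductase, and thioredoxin reductase recharges it, also with NADPH. Many of these genes, with the quinone reductase gene NQO1, carry antioxidant response elements, where the transcription factor NRF2 binds together with small MAF proteins. The repressor KEAP1 keeps NRF2 low in unstressed cells, and lung cancers often activate this pathway.

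The promoters of GCLC and GCLM, the subunits of 1 ligase, and of TXN and TXNRD1, thioredoxin and its reductase, are shown because the changes of the members of each pair are set beside each other in the results. The sequences are from RefSeq (GRCh38.p14), 5′ to 3′ on the strand of the gene, and run from 250 bases before to 50 bases after an annotated start. Capitals mark each match to the core of the antioxidant response element, TGACNNNGC, or to its reverse complement GCNNNGTCA, where N is any base.
GCLM, chr1:93909381-93909680, minus strand: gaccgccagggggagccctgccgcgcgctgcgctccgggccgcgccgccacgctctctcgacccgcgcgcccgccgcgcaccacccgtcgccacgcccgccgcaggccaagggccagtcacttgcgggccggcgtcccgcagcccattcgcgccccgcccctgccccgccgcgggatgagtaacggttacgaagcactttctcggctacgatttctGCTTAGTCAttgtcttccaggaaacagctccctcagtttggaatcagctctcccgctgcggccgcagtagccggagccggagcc
GCLC, chr6:53545052-53545351, minus strand: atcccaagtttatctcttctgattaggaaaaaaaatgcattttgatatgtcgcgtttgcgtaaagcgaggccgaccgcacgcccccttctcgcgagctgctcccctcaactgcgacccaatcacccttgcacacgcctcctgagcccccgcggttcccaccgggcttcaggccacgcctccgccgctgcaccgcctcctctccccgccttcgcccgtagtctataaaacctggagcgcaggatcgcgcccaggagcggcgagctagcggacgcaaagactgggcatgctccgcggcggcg
TXN, chr9:110256458-110256757, minus strand: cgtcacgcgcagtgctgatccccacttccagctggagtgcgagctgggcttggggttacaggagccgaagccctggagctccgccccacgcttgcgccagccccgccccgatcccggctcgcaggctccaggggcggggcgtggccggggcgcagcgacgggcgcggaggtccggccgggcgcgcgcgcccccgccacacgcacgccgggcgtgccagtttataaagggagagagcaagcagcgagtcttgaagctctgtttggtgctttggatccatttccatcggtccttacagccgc
TXNRD1 window 1, chr12:104215529-104215828, plus strand: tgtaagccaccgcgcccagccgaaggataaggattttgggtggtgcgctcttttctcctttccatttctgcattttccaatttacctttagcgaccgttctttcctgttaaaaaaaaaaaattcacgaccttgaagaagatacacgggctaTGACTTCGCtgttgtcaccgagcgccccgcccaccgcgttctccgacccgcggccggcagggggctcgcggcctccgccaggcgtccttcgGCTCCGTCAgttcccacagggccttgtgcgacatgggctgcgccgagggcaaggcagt
TXNRD1 window 2, chr12:104286782-104287081, plus strand: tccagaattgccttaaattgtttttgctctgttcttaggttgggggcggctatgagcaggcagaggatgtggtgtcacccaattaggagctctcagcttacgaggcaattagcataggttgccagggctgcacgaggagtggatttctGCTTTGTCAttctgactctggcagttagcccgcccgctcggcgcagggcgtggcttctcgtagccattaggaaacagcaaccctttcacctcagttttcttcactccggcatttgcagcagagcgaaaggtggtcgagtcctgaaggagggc
The table held 10 windows for 7 of the measured genes, GCLC, GCLM, GPX1, GPX4, TXN, TXNRD1 and NQO1. The core was found in 3 of the 10 windows, which belong to GCLM and TXNRD1. It was also found in 13.3% of the 35116 windows for all genes, from which no chromosome was left out. In GCLM the match spans bases 34 to 26 before the start. The first TXNRD1 window holds a forward match at bases 99 to 91 and a reverse match from base 8 to the start itself, and the second holds a reverse match at bases 102 to 94. No 2 matches overlapped. A match is a description of these letters and not a measured binding site.

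More of the measured antioxidant genes were called lower than higher in cells kept with PD 0332991. In the whole-table limma comparison, with Benjamini-Hochberg adjustment over all 22375 genes, 5 of the 9 were lower (GCLM, TXN, TXNRD1, GSR and PRDX1), 1 was higher (NQO1) and 3 did not pass an adjusted p of 0.05 (GCLC, GPX1 and GPX4). Their median change was -0.34 on the deposited log2 scale, against 0.00 over all genes, and the range was -1.61 to 0.28. The drug changed much of this transcriptome: 38.1% of all genes were called, 18.5% lower and 19.6% higher. Calls were more frequent among genes with high values, with 73.4% called and 38.7% lower among the 4475 genes with the highest mean levels. Those 4475 held 7 of the 9 antioxidant genes, of which 6 were called and 5 were lower. All of the set's calls thus lay where calls were frequent in general. The groups did not overlap in 7 of the 9 genes, where 47.5% of all genes had groups that did not overlap. The array measures RNA from the whole culture, so fewer cells with a transcript and less of it per cell cannot be told apart.

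**Figure D1:**
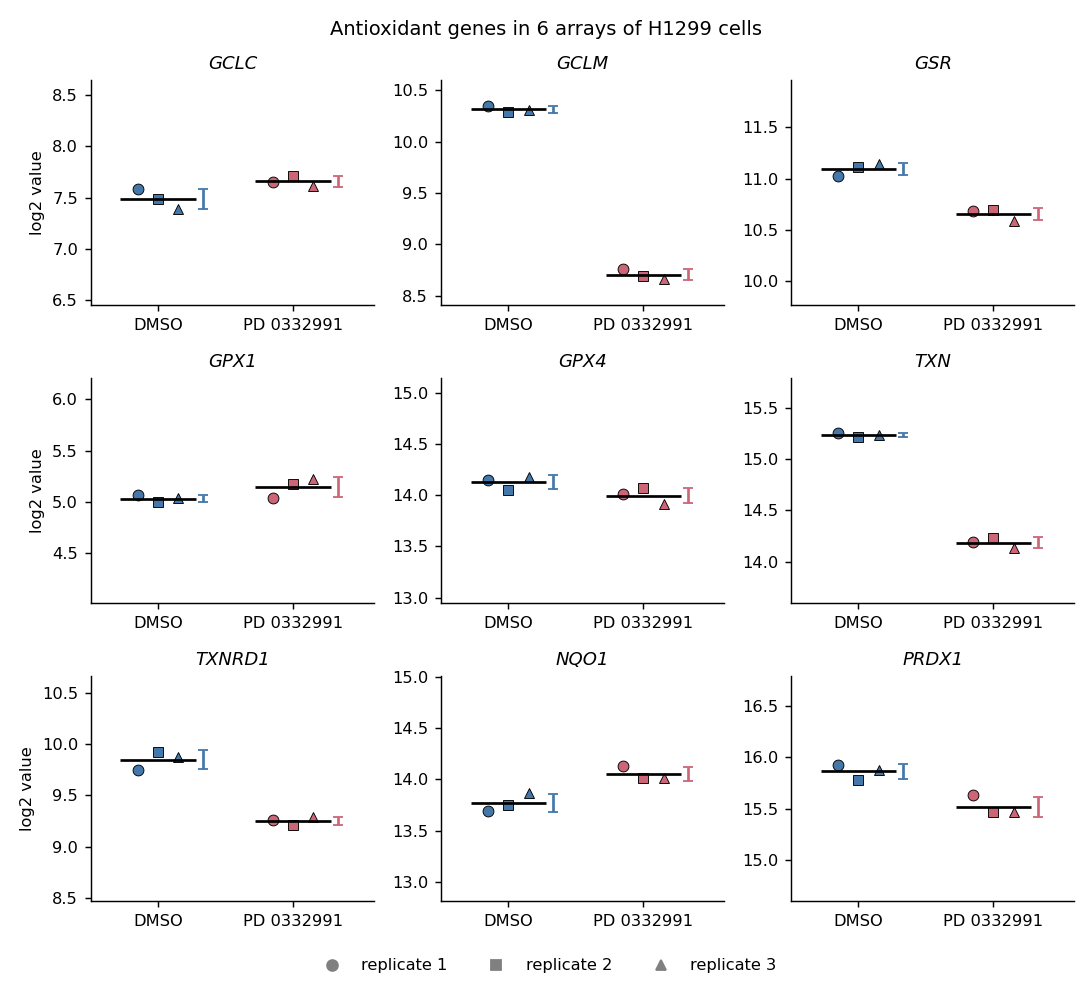
Values of the 9 antioxidant genes in each array (y axis, deposited log2 value, each panel spanning the same number of log2 units; x axis, treatment). Points are single arrays with a shape per replicate number, lines are group means and the bars beside them the SD (n = 3 per group). The groups are farthest apart in GCLM, at 10.3 and 8.70, and overlap in GPX1 and GPX4.

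The 6 arrays had medians between 4.85 and 4.98 and correlated at 0.992 to 0.995 within groups and at 0.969 to 0.973 between them (Pearson's r across rows, which are not independent replicates). A principal component that carried 4.89% of the variance, the next after the one that parted the treatments, set DMSO replicate 1 and PD 0332991 replicate 2 apart from the other 4 arrays. Without both arrays 4 antioxidant genes were lower and 0 were higher by limma, since PRDX1 and NQO1 missed the threshold (adjusted p = 0.0713 and 0.0795). The cells had high values for vimentin and for the keratin genes KRT8 and KRT18, with VIM at 15.7, KRT8 at 14.0 and KRT18 at 14.1 in DMSO. The keratin gene KRT7 was lower, at 6.07 in DMSO. EPCAM, KRT19 and CDH1 lay near or below the array medians at 5.02, 4.62 and 4.51. KRT8 rose by 0.79 ± 0.08, VIM fell by 0.57 ± 0.07 (-0.60 to -0.35 over the 3 rescalings), and CDH2 was higher by 0.26 ± 0.09, a call lost after median centring and on leaving out any array other than DMSO replicate 1. Of 14 measured markers of blood, endothelial and fibroblast cells, 11 had group means under the lowest array median with and without the drug, among them the leukocyte gene PTPRC at 4.16 in DMSO and 4.11 under the drug, and their mean level per array ran from 4.85 to 5.04 in DMSO and from 4.71 to 4.90 under the drug. Of these markers, CD68, which encodes a lysosomal membrane protein of macrophages and other cells, fell by 2.30 ± 0.11 from 12.7, and the endothelial gene PECAM1 rose by 0.40 ± 0.13 from 3.53, a call lost without any one of 4 of the arrays (DMSO replicates 1 and 2, PD 0332991 replicates 1 and 3). Their part in the results below was not tested. MKI67, a marker of cycling cells, fell by 7.42 ± 0.12 from 14.2 to 6.75 (limma adjusted p = 1.15e-08), and whether this difference moves with the antioxidant genes beyond the treatment was not tested.

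Of the subunits of glutamate-cysteine ligase, GCLM was called lower and GCLC was not called. GCLM encodes the modifier subunit, which lowers the enzyme's need for glutamate and its inhibition by glutathione, and its values were 10.35, 10.29 and 10.31 in DMSO and 8.76, 8.69 and 8.66 with PD 0332991. Every array with the drug lay below every DMSO array, by at least 1.53. GCLM fell by 1.61 ± 0.07 (SE, n = 3 per group; 95% confidence interval -1.77 to -1.46; limma adjusted p = 6.88e-07), a change larger in size than that of 96.1% of all genes. GCLC encodes the catalytic subunit, and its values were 7.59, 7.49 and 7.39 in DMSO and 7.65, 7.71 and 7.61 with the drug. The groups of GCLC did not overlap but came within 0.025 of each other. The GCLC change was 0.17 ± 0.08 (interval -0.01 to 0.35; adjusted p = 0.125), so a rise of up to 0.35 lies within its interval. The promoter windows shown above contain a core match for GCLM and none for GCLC. TXN, which was also called lower, has no match in its window, while TXNRD1, called lower too, has matches. Sequence outside these windows was not searched, so an element farther from the start would have been missed. Whether a match goes with the change of a gene was not tested.

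Glutathione reductase and the glutathione peroxidases follow in the cycle. GSR, for the reductase, read 11.02, 11.11 and 11.14 in DMSO and 10.68, 10.69 and 10.59 with PD 0332991. All drug arrays lay below all DMSO arrays, and GSR fell by 0.44 ± 0.07 (SE, n = 3 per group; 95% confidence interval -0.60 to -0.28; limma adjusted p = 0.00120). GPX4 encodes the selenoenzyme that reduces lipid hydroperoxides in membranes and so protects cells from ferroptosis. Its values were 14.15, 14.05 and 14.18 in DMSO and 14.01, 14.06 and 13.91 with the drug, and the groups overlapped. The GPX4 change of -0.13 ± 0.07 did not pass (adjusted p = 0.232), and its interval of -0.30 to 0.04 holds no fall as large as that of GCLM or TXN. After quantile normalization the GPX4 change was -0.03 (adjusted p = 0.775). GPX1 encodes the abundant cytosolic selenoperoxidase of hydrogen peroxide, and read 5.06, 4.998 and 5.03 in DMSO and 5.04, 5.17 and 5.22 with the drug. These values lie close to the array medians, so the GPX1 probe set was not shown to be above background, and its change of 0.11 ± 0.07 (adjusted p = 0.303) does not show whether the transcript responded.

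Both core genes of the cytosolic thioredoxin system fell. TXN, for thioredoxin, read 15.25, 15.21 and 15.23 in DMSO and 14.19, 14.23 and 14.14 with PD 0332991. The groups were 0.98 apart at their closest arrays, and the SD within groups was 0.02 and 0.05. TXN fell by 1.05 ± 0.06 (SE, n = 3 per group; 95% confidence interval -1.20 to -0.90; limma adjusted p = 5.89e-06). TXNRD1 encodes the selenoenzyme that reduces thioredoxin, and read 9.75, 9.92 and 9.88 in DMSO and 9.26, 9.21 and 9.29 with the drug. The lowest DMSO array lay 0.46 above the highest drug array. TXNRD1 fell by 0.60 ± 0.07 (interval -0.77 to -0.43; adjusted p = 0.000281). PRDX1, the cytosolic peroxiredoxin that thioredoxin keeps reduced, read 15.93, 15.78 and 15.88 in DMSO and 15.63, 15.47 and 15.46 with the drug. The groups did not overlap, with a gap of 0.15. PRDX1 fell by 0.34 ± 0.08 (interval -0.53 to -0.16; adjusted p = 0.00886). After quantile normalization the PRDX1 change was -0.14 and was not called (adjusted p = 0.223).

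NQO1 was the 1 gene of the set that was higher. It encodes a quinone reductase that uses NADH or NADPH and is widely read as an indicator of NRF2 activity. NQO1 read 13.69, 13.75 and 13.87 in DMSO and 14.13, 14.01 and 14.01 with PD 0332991, and the groups were 0.14 apart. It rose by 0.28 ± 0.08 (SE, n = 3 per group; 95% confidence interval 0.10 to 0.45; limma adjusted p = 0.0214). The call was lost without DMSO replicate 1 (adjusted p = 0.0660), without DMSO replicate 2 (0.0759) and without PD 0332991 replicate 1 (0.0776), and when all 65535 rows were tested together (0.0863). The NQO1 change was above 0 in every alternative run, between 0.24 and 0.37.

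**Figure D2:**
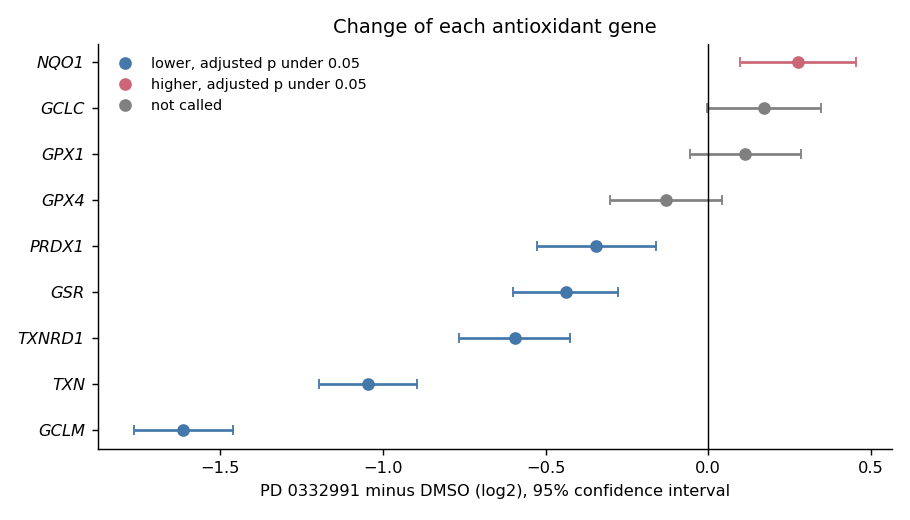
Change of each of the 9 antioxidant genes (x axis, PD 0332991 minus DMSO on the log2 scale; y axis, gene), with limma's 95% confidence interval as bars (n = 3 per group). The 5 genes called lower run from -0.34 in PRDX1 to -1.61 in GCLM, NQO1 at 0.28 is called higher, and the intervals of GCLC, GPX1 and GPX4 include 0.

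Genes whose products work together were then compared within arrays, as the difference of their log2 values. The level of such a difference depends on the probes of both genes, so only its change between groups was read. Whether the probes of 2 genes report a change on the same scale was not tested. GCLM minus GCLC was 2.76, 2.80 and 2.92 in DMSO and 1.11, 0.98 and 1.05 with PD 0332991. The groups were far apart, and GCLM changed by -1.78 relative to GCLC. TXN minus TXNRD1 was 5.51, 5.29 and 5.35 in DMSO and 4.93, 5.02 and 4.85 with the drug, so that TXN changed by -0.45 relative to TXNRD1. GPX1 minus GPX4 was -9.09, -9.05 and -9.14 in DMSO and -8.97, -8.89 and -8.69 with the drug, a relative change of 0.24 between a gene with values well above the array medians and one not shown to be above background. For GPX1 and GPX4 it was 0.11 after quantile normalization and 0.21 after cyclic loess, with exact permutation adjusted p of 0.5 and 0.3, so no unequal change of the 2 peroxidases is read from it. On the deposited values the groups did not overlap in any of these 3 pairs, and the exact two-sided permutation test gave p = 0.1 and an adjusted p of 0.1 over the 3 pairs, which is the smallest value that 3 arrays against 3 allow and does not pass 0.05. A planned comparison of SRXN1 with PRDX1 could not be made.

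**Figure D3:**
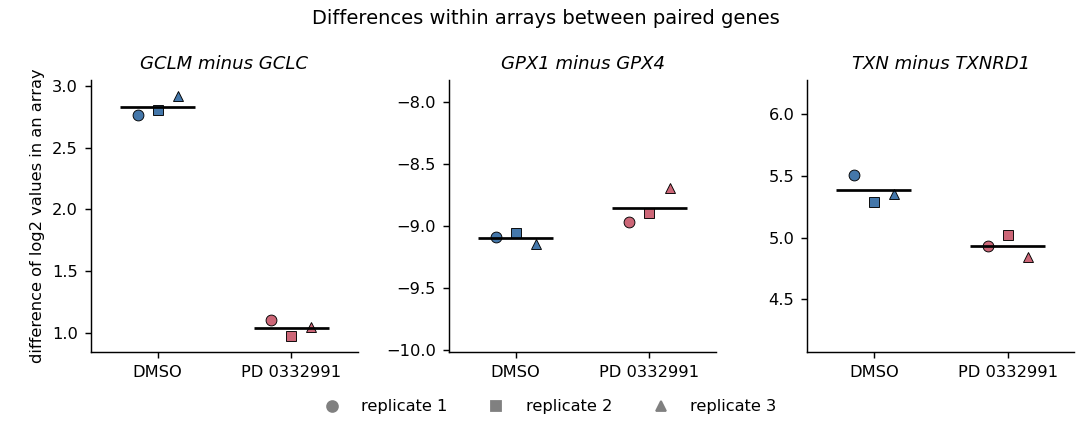
Difference of the log2 values of 2 genes within each array (y axis) by treatment (x axis), for GCLM minus GCLC, GPX1 minus GPX4 and TXN minus TXNRD1. Points are arrays, with a shape per replicate number, and lines are group means; the GCLM minus GCLC mean goes from 2.83 to 1.04.

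Beside the list counts that follow stand the shares over all genes, 18.5% lower and 19.6% higher. Among the 4475 genes with the highest mean levels 38.7% were lower. Of 13 measured genes of glutathione synthesis, turnover and cystine uptake, 8 were lower, 2 were higher and 3 did not pass, with a median change of -0.89. The 2 that were higher, named after their values were seen, were GGT7, of the gamma-glutamyltransferase family, at 1.03 (limma adjusted p = 1.91e-05) and the efflux transporter gene ABCC1 at 0.31 (adjusted p = 0.0137), and after median centring 1 was higher. GGT5, GGT6 and OPLAH did not pass. GGCT, the gamma-glutamylcyclotransferase of the glutathione cycle, fell by 2.51 ± 0.08 (SE, n = 3 per group), from 10.1 to 7.61 (limma adjusted p = 2.58e-07). SLC7A11, the cystine importer that supplies cysteine, fell by 2.34 ± 0.17, and CHAC2, which degrades glutathione, fell by 2.33 ± 0.08. SLC7A11 read 11.93, 12.05 and 11.59 in DMSO and 9.27, 9.43 and 9.84 with the drug, so its groups were well apart. GSS, glutathione synthetase, which completes the tripeptide, fell by 0.55 ± 0.08 (adjusted p = 0.000515). Thus GSS and GCLM of the synthesis steps were lower, while GCLC did not pass. The 4 measured glutaredoxins, small enzymes that use glutathione to reduce disulfides or carry iron-sulfur clusters, gave 3 lower and 1 higher, with 2 lower when any single array was left out. GLRX3 fell by 1.72 ± 0.08 and the mitochondrial GLRX5 fell by 0.66 ± 0.08, while GLRX rose by 0.36 ± 0.07.

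Other peroxidases and the glutathione transferases, which attach glutathione to electrophiles, went both ways. Of the 6 other glutathione peroxidases 1 was higher, 1 was lower and 4 did not pass, with 2 higher after quantile normalization, after cyclic loess or without DMSO replicate 1. GPX3, a secreted enzyme, rose by 0.49 ± 0.06 (SE, n = 3 per group) from 5.34, and GPX7 fell by 0.25 ± 0.07 to 4.75, a call lost without any one of 4 of the arrays (DMSO replicates 2 and 3, PD 0332991 replicates 2 and 3). Both levels lay near the array medians, so these sizes are uncertain. Of 20 measured transferases 7 were higher, 3 were lower and 10 did not pass, with a median of -0.04. The higher count was 5 after median centring and 5 or 6 when any single array was left out. GSTM2 and GSTM4 rose by 1.42 ± 0.08 and 0.98 ± 0.07 (limma adjusted p = 3.93e-06 and 1.33e-05), and MGST1, a membrane-bound transferase, fell by 0.98 ± 0.09. The DMSO level of GSTM2, 5.39, was close to the array medians, which leaves the size of that rise uncertain too. The GSTM genes are close in sequence, and whether their probes measure them separately was not tested.

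No gene of the wider thioredoxin list was called higher. Of its 17 measured genes 7 were lower and 10 did not pass, with a median of -0.21. The lower count was 5 without PD 0332991 replicate 3 and 8 after cyclic loess. TMX1 and TXNDC5, thioredoxin-like proteins of the endoplasmic reticulum, fell by 0.94 ± 0.09 and fell by 0.72 ± 0.07 (SE, n = 3 per group; limma adjusted p = 5.28e-05 and 8.73e-05). TXNL4A, a spliceosomal protein with a thioredoxin-like fold, fell by 0.65 ± 0.12. TXNIP, which binds and inhibits thioredoxin, lay below every array median at 4.18 in DMSO and 4.14 under the drug and was not shown to be above background. Of 7 measured peroxiredoxins and sestrins besides PRDX1, 3 were lower and 4 did not pass, and 1 was higher after quantile normalization. The mitochondrial peroxiredoxin PRDX3 fell by 1.23 ± 0.09 from 14.1 to 12.8 (adjusted p = 1.25e-05), the stress gene SESN2 fell by 1.22 ± 0.08, and PRDX4 of the endoplasmic reticulum fell by 0.40 ± 0.08. PRDX2, at 4.62 in DMSO, lay below the array medians. Of the 4 measured genes for superoxide dismutases, their copper chaperone and catalase, CAT fell by 0.44 ± 0.10 and SOD1 fell by 0.37 ± 0.07, while the chaperone gene CCS rose by 0.87 ± 0.11.

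NRF2's own transcript was higher with the drug. NFE2L2, which encodes NRF2, went from 10.9 to 11.5 and so rose by 0.51 ± 0.07 (limma, SE, n = 3 per group; adjusted p = 0.000564), and the related factor gene NFE2L1 rose by 1.89 ± 0.07 (adjusted p = 5.79e-07). KEAP1 had a change of -0.05 ± 0.09 (adjusted p = 0.773), whose sign turned in 3 of the alternatives that rescaled the arrays or left 1 out. Of the 12 measured regulators 4 were higher, 5 were lower and 3 did not pass, and the competing repressor BACH1 was not analysed here. NFE2L3 fell by 0.98 ± 0.07, and BTRC, a ubiquitin ligase adaptor that targets NRF2, rose by 0.92 ± 0.08. Of 29 other measured target genes of NRF2, 8 were higher, 8 were lower and 13 did not pass, with a median of 0.09. The lower count was 5 without DMSO replicate 2 and again without PD 0332991 replicate 1, and the median was 0.04 without DMSO replicate 1. The gene with the largest fall there was SLC7A11, named above, while ABHD4 and the epoxide hydrolase gene EPHX1 rose by 1.49 ± 0.09 and 1.22 ± 0.08. HMOX1, heme oxygenase 1, fell by 0.22 ± 0.07 (adjusted p = 0.0440), a call that was lost without any single array except DMSO replicate 1 (adjusted p up to 0.145).

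The supplies on which these enzymes draw were mixed. GPX1, GPX4 and TXNRD1 contain selenocysteine, and of 10 measured genes listed under its synthesis and insertion 4 were lower, 2 were higher and 4 did not pass. SECISBP2L rose by 1.18 ± 0.10 (SE, n = 3 per group), while SEPHS1 and SECISBP2, which helps decode selenocysteine codons, fell by 1.10 ± 0.07 and fell by 0.73 ± 0.07 (limma adjusted p = 5.70e-06 and 4.77e-05). Both reductases use NADPH, and of 14 measured genes of NADPH supply 3 were lower, 3 were higher and 8 did not pass. The folate enzyme genes MTHFD1 and MTHFD2 fell by 2.11 ± 0.08 and fell by 1.47 ± 0.07, and NNT, the mitochondrial transhydrogenase that makes NADPH, rose by 1.34 ± 0.08. Counted once each, the 131 measured genes of all these lists other than the 9 gave 46 lower, 28 higher and 57 not passing, with a median of -0.07. Over all genes 38.1% were called, 18.5% lower and 19.6% higher. Calls were more frequent among genes with high values, so the list counts are descriptions only. Some genes counted as not passing lay below the array medians in both groups, and whether their transcripts responded is not shown.

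**Figure D4:**
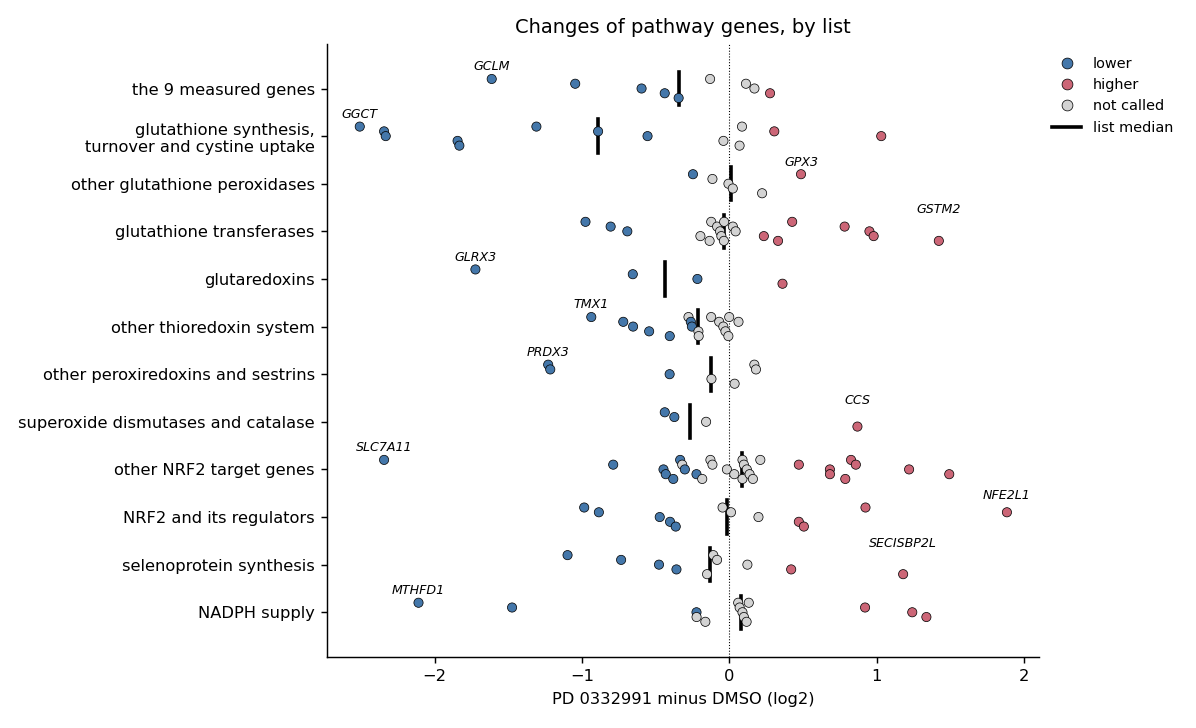
Changes of the 9 antioxidant genes and of 11 lists of related genes (x axis, PD 0332991 minus DMSO on the log2 scale; y axis, list). Points are genes, coloured by limma call at an adjusted p under 0.05, black bars are list medians, and the gene farthest from 0 in each list is named; the list of glutathione synthesis, turnover and cystine uptake has the lowest median, -0.89.

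The genes whose profiles over the 6 arrays lay nearest to those of the members with the largest and the smallest change were found by the root mean square distance, each profile being taken relative to its DMSO mean. Nearest to GCLM were IPO5 (distance 0.0256), TOMM5 (0.0384) and TUBA1B (0.0405), which changed by -1.64, -1.60 and -1.59. Nearest to GPX1 were UTP3, NKAIN3 and TTLL11, at distances of 0.0234 to 0.0268. With 2 groups of 3 arrays such likeness mostly means a group difference of like size.

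**Figure D5:**
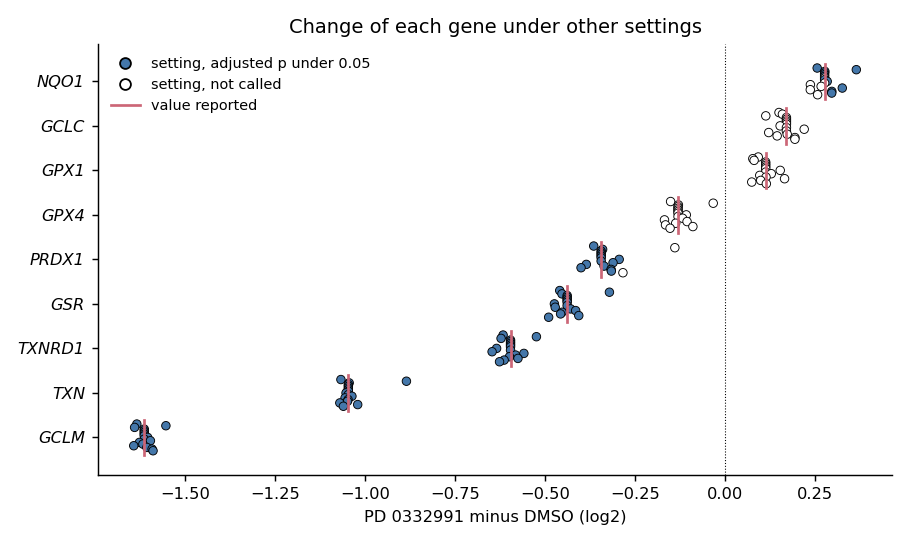
Change of each of the 9 antioxidant genes under the alternatives to the reported comparison, apart from the test against a minimum change (x axis, PD 0332991 minus DMSO on the log2 scale; y axis, gene). Points are alternatives, filled where the adjusted p was under 0.05, and red lines are the reported values; GCLM lies between -1.64 and -1.55, and no gene changes sign.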

How the data were processed

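Per the submitters' processing notes, the authors made the values with Affymetrix Expression Console; the program's version and its methods of summarising and normalizing probes are not stated in the labels. The deposited table holds log2 values for 65535 transcript clusters on 6 arrays, a base inferred from their range (1.87 to 19.9). Some values exceed 16, the log2 range of a 16-bit scanner, so changes are differences on the deposited scale. The labels name different preparation kits (Affymetrix WT Plus, NuGEN) and do not settle which was used. Depth does not apply; the number of arrays limits precision, and the median SE of a change was 0.0875.

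The platform annotation gave 22685 rows 1 symbol, 1385 several and 41465 none. For 296 genes with several rows the one with the highest mean was used, leaving 22375 genes. PD 0332991 was compared with DMSO in R 4.3.3 with limma 3.58.1 (lmFit, eBayes, two-sided, Benjamini-Hochberg over all genes, called under 0.05), with no filter on dim genes and no rescaling. On simulated data for these 22375 genes with 200 changed, it recovered 61.2% of changes of 0.5, 95.5% of 1 and 100% of 2, and 11 of 182 calls were false. In the measured data 8529 genes were called, so these rates are for far fewer changed genes and need not hold there. No scan dates or detection flags were available to examine as batches. Gene lists are described by counts and medians, without a set test. From each list the text names up to 3 called genes with the largest change, and in any case SLC7A11, GSS, NFE2L2, KEAP1, TXNIP, HMOX1, PRDX2, PRDX3 and MKI67, with marker genes for the cell check. The members and lists were chosen with earlier results of these data known. KRT8, KRT18, KRT7, VIM, EPCAM, KRT19, CDH1, PTPRC and CD68 are from the list of cell markers. The labels do not say that a replicate number marks a shared culture, so the arrays were not paired. The correlation of deviations from group means was -0.33, -0.15 and 0.10 for numbers 1 to 3. Deviations from the mean of so few arrays offset one another, so these values cannot show whether arrays with the same number shared a culture.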

Additional observations from a re-analysis of the deposited data

How the results depend on the processing

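The comparison was repeated with 3 rescalings (median centring, quantile normalization, cyclic loess), 2 filters on dim genes, averaged rows per gene, all rows tested, eBayes with trend and robust fitting, array weights, a replicate block, a minimum change of 1, each array left out in turn, and DMSO replicate 1 and PD 0332991 replicate 2 left out together. No antioxidant gene changed sign in these. The count of all genes called was within 1.5 times of 8529 except against a minimum change of 1, where it was 1238 and 1 antioxidant gene, GCLM, was lower; leaving out single arrays gave 7483 to 8075. The count of antioxidant genes called lower was 5 without each array in turn. It was 4 after quantile normalization and 4 without DMSO replicate 1 and PD 0332991 replicate 2 together, where PRDX1 was not called. The count called higher, which is NQO1 alone, was 0 to 1 without single arrays, and 0 with all rows tested, with the replicate block (NQO1 adjusted p = 0.0649), against a minimum change of 1 and without both named arrays. The block used replicate numbers, which the labels do not say mark a shared culture, and DMSO replicate 1 deviated most like PD 0332991 replicate 2 (r = 0.41). The 3 differences within pairs kept their direction in all 11 alternatives each: -1.82 to -1.71 for GCLM less GCLC, 0.11 to 0.30 for GPX1 less GPX4 and -0.50 to -0.36 for TXN less TXNRD1, with permutation within replicate numbers included. For GPX1 less GPX4 the exact permutation adjusted p rose from 0.1 to 0.5 after quantile normalization and to 0.3 after cyclic loess. Levels near the array medians, as in GPX1, are not shown to be above background. The causes of these shifts were not tested.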
